A study of Homo sapiens with 9 samples.

Results

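The 7SL, 7SK, Y and vault RNAs are short, abundant non-coding RNAs made by RNA polymerase III, and the human genome holds many imperfect copies of them. They were taken here as the exon windows of all genes that GENCODE types as misc_RNA or vault_RNA, which gave 3695 windows in 859 genes, of 15767966 windows and 35309 identifiers in all. By symbol, 264 genes with 1409 windows were 7SL (RN7SL1 and its copies), 179 genes with 908 windows were 7SK (RN7SK and its copies), 326 genes with 937 windows were Y RNAs, and 9 genes with 26 windows were vault RNAs. The other 81 genes, with 415 windows, were of mixed kind. Most were close to empty: 520 of the 859 genes had fewer than 10 counts summed over all windows and libraries, and RN7SK alone held 66.1% of the counts of the whole set.

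The libraries come from enhanced cross-linking and immunoprecipitation (eCLIP) in Huh7, a human hepatoma cell line in standard medium, with no genetic change and no treatment named in the labels. RNA and protein were joined by UV light, lysates were treated with RNase I, and the study asked which RNAs are bound by endogenous malate dehydrogenase 2 (MDH2), a mitochondrial enzyme of the citric acid cycle. There were 3 libraries from an MDH2 antibody (MDH2 IP), 3 of size-matched input (SMI, or input) and 3 from an isotype-matched control antibody (IgG IP). A count is a cross-link site, the position next to the start of a read, in a window of 50 nt, with a new window every 20 nt, so a site enters up to 3 windows and a sum over windows is larger than the sites behind it. In windows that do not overlap, MDH2 IP libraries held 1985935 to 3183081 counts, SMI libraries 2796754 to 3295322 and IgG IP libraries 545598 to 985346. MDH2 IP and IgG IP libraries had 14 PCR cycles and SMI libraries 9, so this difference cannot be told apart from IP against SMI. No label says that the 3 libraries of a group came from separate cultures, so p-values measure only the spread between these libraries. Liver genes were present in SMI, where albumin (ALB) had 535 ± 114 CPM (SD, n = 3; window counts scaled to a common library total, with TMM factors) and alpha-fetoprotein (AFP) 863 ± 84.5, while the leukocyte gene PTPRC had 0.177 ± 0.307.

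7SL RNA is the scaffold of the signal recognition particle, which pauses ribosomes that make secreted proteins and brings them to the endoplasmic reticulum. 7SK RNA is nuclear and, with LARP7, MEPCE and HEXIM1, holds the transcription elongation kinase P-TEFb (CDK9 with cyclin T) inactive. Y RNAs are bound by RO60 and La (SSB) and take part in RNA quality control and DNA replication, and vault RNAs are the small RNA part of the vault, a large cytoplasmic particle built mainly of the protein MVP. In the liver, which secretes much protein, the signal recognition particle is a busy part of the secretory route.

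The windows on which the results turn are printed first, in DNA letters from GRCh38 and from 5′ to 3′ of the RNA. The RN7SK windows are the window with the most counts (nt 241–290), a window of the 5′ part (nt 41–90), the window matched to the copies (nt 161–210) and the last window (nt 301–331).
RN7SK nt 41–90 (chr6:52995660-52995709, plus strand): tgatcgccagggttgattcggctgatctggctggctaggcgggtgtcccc
RN7SK nt 161–210 (chr6:52995780-52995829, plus strand): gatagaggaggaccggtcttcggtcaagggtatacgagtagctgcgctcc
RN7SK nt 241–290 (chr6:52995860-52995909, plus strand): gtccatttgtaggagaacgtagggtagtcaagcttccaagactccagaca
RN7SK nt 301–331 (chr6:52995920-52995950, plus strand): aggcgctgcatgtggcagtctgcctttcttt
The next windows belong to copies of RN7SK that had more counts in MDH2 IP than in SMI. Capitals mark bases unlike the best aligned stretch of RN7SK. RN7SKP71 has none, so this window has the same letters as the RN7SK window nt 161–210.
RN7SKP71 nt 161–210 (chr12:112267237-112267286, plus strand): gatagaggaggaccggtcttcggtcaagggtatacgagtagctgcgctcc
RN7SKP191 nt 161–210 (chr9:105096916-105096965, plus strand): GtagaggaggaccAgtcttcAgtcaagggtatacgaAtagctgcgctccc
RN7SKP9 nt 161–210 (chr13:99205868-99205917, plus strand): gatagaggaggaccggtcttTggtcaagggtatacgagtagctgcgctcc
RN7SKP114 nt 81–130 (chr9:34050046-34050095, plus strand): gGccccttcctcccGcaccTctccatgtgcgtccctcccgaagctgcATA
RN7SKP157 nt 41–90 (chr5:62146705-62146754, plus strand): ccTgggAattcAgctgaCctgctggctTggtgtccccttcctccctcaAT
RN7SKP126 nt 171–220 (chr1:192875766-192875815, minus strand): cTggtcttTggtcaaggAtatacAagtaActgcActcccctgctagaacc
RN7SKP160 nt 281–330 (chr1:173791828-173791877, plus strand): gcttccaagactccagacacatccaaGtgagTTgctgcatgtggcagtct
RNY1, RNY4 and the vault RNAs are short enough to show whole. Capitals here mark runs of at least 4 T, the letters at which RNA polymerase III stops.
RNY1 (chr7:148987136-148987248, minus strand): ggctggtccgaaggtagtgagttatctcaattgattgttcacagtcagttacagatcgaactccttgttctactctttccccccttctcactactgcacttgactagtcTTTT
RNY4 (chr7:148963315-148963410, plus strand): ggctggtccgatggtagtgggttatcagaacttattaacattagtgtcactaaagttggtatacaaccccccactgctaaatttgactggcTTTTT
VTRNA1-1 (chr5:140711275-140711373, plus strand): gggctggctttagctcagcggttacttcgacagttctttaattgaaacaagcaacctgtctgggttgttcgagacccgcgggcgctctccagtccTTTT
VTRNA1-2 (chr5:140718925-140719013, plus strand): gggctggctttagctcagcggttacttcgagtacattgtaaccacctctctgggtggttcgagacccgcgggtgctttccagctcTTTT
VTRNA1-3 (chr5:140726158-140726246, plus strand): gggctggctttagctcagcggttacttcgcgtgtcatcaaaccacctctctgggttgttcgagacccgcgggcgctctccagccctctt
VTRNA2-1 (chr5:136080470-136080597, minus strand): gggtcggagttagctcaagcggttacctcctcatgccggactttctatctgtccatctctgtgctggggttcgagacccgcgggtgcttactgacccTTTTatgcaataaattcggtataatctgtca

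By share of all window counts, 7SL, 7SK and vault RNAs were all lower in MDH2 IP than in SMI, and so were they in IgG IP, while the groups overlapped for Y RNAs. The 7SL genes held 0.00844, 0.00965 and 0.0116% of the counts of the MDH2 IP libraries, against 0.22, 0.175 and 0.194% in SMI and 0.00622, 0.00585 and 0.00797% in IgG IP. The mean in SMI was 19.9-fold that in MDH2 IP and 29.4-fold that in IgG IP, with all MDH2 IP libraries above all IgG IP libraries. The 7SK genes held 0.23, 0.322 and 0.227% with the MDH2 antibody, 0.425, 0.585 and 0.353% in input and 0.239, 0.211 and 0.14% with IgG. Here SMI was 1.75-fold over MDH2 IP and 2.31-fold over IgG IP, with MDH2 IP and IgG IP overlapping. Vault RNAs had 0.00664, 0.0123 and 0.00929% with the MDH2 antibody, 0.0543, 0.0533 and 0.0278% in input and 0.0192, 0.00748 and 0.00509% with IgG, so that SMI was 4.8-fold over MDH2 IP and the antibodies overlapped. An entry called Vault repeats the sites of VTRNA2-1 in these shares, and without it SMI was 4.25-fold over MDH2 IP. For Y RNAs the values were 0.00941, 0.0151 and 0.0125% with the MDH2 antibody, 0.0135, 0.0144 and 0.0104% in input and 0.0172, 0.0112 and 0.0101% with IgG, and the 3 groups overlapped. These shares are relative to each library's total, so less of an RNA cannot be told apart from more of other RNAs.

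**Figure D1:**
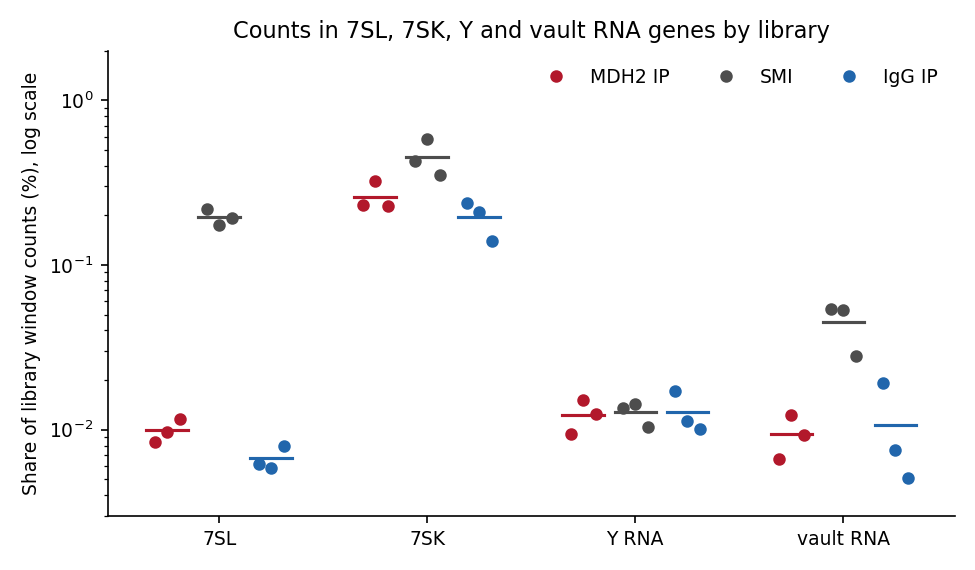
Share of each library's window counts (%, log scale) held by the 7SL, 7SK, Y and vault RNA genes; points are libraries, lines are means over 3 libraries. The 3 SMI libraries lie above all MDH2 IP and IgG IP libraries for 7SL, 7SK and vault RNAs, and the groups overlap for Y RNAs.

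Counted by window, more member windows were lower in MDH2 IP than in SMI than were higher. Windows overlap and many lie in the same few RNAs, so they are not separate members, and by gene the order was turned. A window entered the edgeR test where 3 or more of the 6 libraries reached 10 counts, and it was called enriched or lower if its adjusted p did not exceed 0.05 and its log2 fold change was 1 or more in that direction. Of 147 member windows tested over SMI, 23 were enriched and 65 lower, against 4.07% enriched and 9.92% lower among all 51105 windows tested. All 27 tested 7SL windows were lower (11 of them passed the filter only through SMI), as were 14 of 16 vault windows (1 passed only through SMI) and 11 of 16 Y windows (5 passed only through SMI). Without the repeated Vault entry, 10 of 12 vault windows were lower. 7SK was divided, with 19 windows enriched and 10 lower of 40 (16 of the enriched passed only through MDH2 IP). Against IgG IP the picture was different: of 112 member windows tested, 0 were enriched and 17 lower, with 0.148% enriched and 4.77% lower among all 30424. In that comparison 4 member windows had an unadjusted one-sided p under 0.05 for enrichment in edgeR, and DESeq2 also called 0. When library totals replaced TMM scaling, which moved the median log2 fold change of all windows over IgG IP from 0.15 to 0.93, 5 were enriched and 1 lower.

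By gene, counts were summed over the windows of an RNA and tested two-sided with edgeR, with calls at an adjusted p up to 0.05. Over SMI, 73 member genes were tested, of which 21 rose and 14 fell (background 16.4% higher and 17.9% lower of 17056 genes); 16 of the 21 passed the filter only through MDH2 IP. Against IgG IP, 61 were tested, of which 2 rose and 1 fell (background 4.64% and 7.77% of 15491 genes). The 2 that rose were RN7SL1 and RN7SL2.

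RN7SL1 (chr14:49586580-49586878, plus strand, 299 nt) and RN7SL2 (chr14:49862550-49862849, minus strand, 300 nt) are the main genes of 7SL RNA, and both were far below SMI in both immunoprecipitations. RN7SL1 had 196, 170 and 194 summed counts with the MDH2 antibody, 9650, 8668 and 9674 in input and 25, 7 and 19 with IgG. In CPM these were 24.9 ± 6.22, 1016 ± 116 and 8.82 ± 4.38 (SD, n = 3 each), and no group overlapped another. Its log2 fold change was −5.39 (SE 0.21, adjusted p = 4.31e-06) in MDH2 IP over SMI and −6.84 (SE 0.30, adjusted p = 1.37e-06) in IgG IP over SMI. RN7SL2 had 141, 143 and 150 counts with the MDH2 antibody, 7567, 6647 and 7921 in input and 21, 13 and 15 with IgG, with log2 fold changes over SMI of −5.41 (SE 0.23, adjusted p = 4.63e-06) and −6.54 (SE 0.21, adjusted p = 1.86e-07). These RNAs share 98.3% of 300 aligned positions, so the split of reads between them is uncertain, and their near-equal fold changes are not independent.

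Between the antibodies, RN7SL1 and RN7SL2 were higher in MDH2 IP. The log2 fold change was 1.54 (SE 0.38, adjusted p = 0.0275) for RN7SL1 and 1.22 (SE 0.33, adjusted p = 0.0383) for RN7SL2. Both calls were close to the threshold. That of RN7SL1 was lost on leaving out any 1 of MDH2 IP 1, 2 and 3 and IgG IP 1 and 2 (adjusted p between 0.0609 and 0.0772), and that of RN7SL2 on leaving out any 1 of the 6 libraries (0.0545 to 0.112). The IgG IP counts behind them were between 7 and 25 per library.

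RN7SL3 (chr14:49853616-49853914, minus strand), 97.7% identical to RN7SL1, followed at a lower level. It had 38, 49 and 56 counts with the MDH2 antibody, 576, 491 and 795 in input and 15, 6 and 14 with IgG, a log2 fold change of −3.41 (SE 0.32, adjusted p = 0.000381) over SMI. In its window nt 210–259 the MDH2 IP libraries had 0, 1 and 0 counts against 83, 66 and 93 in SMI, so that SMI was 272-fold higher, with an exact 95% counting interval of 48.4 to 10797. Such intervals cover counting error only. Among the copies, 7 7SL genes in all were tested over SMI, and RN7SL381P (chr16:85659378-85659675, plus strand, inside GSE1) was the only one higher. It had 51, 40 and 21 counts with the MDH2 antibody and 12, 20 and 24 in input, a log2 fold change of 1.20 (SE 0.39, adjusted p = 0.0431), a call lost without MDH2 IP 1 or 2 or any 1 of the SMI libraries. RN7SL657P and RN7SL23P had log2 fold changes of 0.91 and 1.01 and RN7SL396P −0.95, none past the test.

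Along 7SL RNA the depletion was not even. In the window nt 221–270 of RN7SL1 the MDH2 IP libraries had 45, 36 and 36 counts, SMI 2872, 2513 and 2784, and IgG IP 3, 3 and 6, a log2 fold change over SMI of −6.30 (SE 0.26, adjusted p = 5.16e-14). In the window nt 1–50 the MDH2 IP counts were 51, 55 and 83, the SMI counts 948, 805 and 925 and the IgG IP counts 13, 0 and 1, a log2 fold change of −3.95 (SE 0.29). The 5′ window was thus lower than in SMI, but less so than the 3′ part, and it held 33.7 ± 8.46% of the RN7SL1 counts in MDH2 IP against 9.56 ± 0.268% in SMI (SD, n = 3). RN7SL2 had the same order, with 22.8 ± 4.74% of its counts in nt 1–40 in MDH2 IP and 7.51 ± 1.28% in SMI. RN7SL3 did not have it in its first window, nt 1–39, with 14.6 ± 1.61% in MDH2 IP and 15 ± 2.34% in SMI, while nt 30–79 held 26.7 ± 2.23% and 16.2 ± 0.493%. IgG IP was too thin to place, at 19.1 ± 28.6% in the first window of RN7SL1 and 34.5 ± 24.7% in that of RN7SL2. All tested windows of the 3 genes were lower over SMI, 9 of RN7SL1, 8 of RN7SL2 and 10 of RN7SL3, with window log2 fold changes between −7.67 and −2.42. The window fit and the gene fit are scaled separately, so their fold changes are not to be set against each other.

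RN7SK (chr6:52995620-52995950, plus strand, 331 nt) had by far the most counts, and its total was lower in both immunoprecipitations than in SMI. It had 20644, 20319 and 12358 summed counts with the MDH2 antibody, 34877, 54039 and 34126 in input and 6570, 3329 and 2089 with IgG. In CPM this was 2292 ± 463, 4447 ± 1168 and 1958 ± 482 (SD, n = 3 each). The MDH2 IP and IgG IP libraries overlapped, and both lay below SMI. The log2 fold change was −0.97 (SE 0.22, adjusted p = 0.00977) in MDH2 IP over SMI, −1.16 (SE 0.24, adjusted p = 0.00588) in IgG IP over SMI, and 0.28 (SE 0.23, adjusted p = 0.452) in MDH2 IP over IgG IP. The files' gene model for RN7SK lies within a newer model at the same place that GENCODE types as snRNA.

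**Figure D2:**
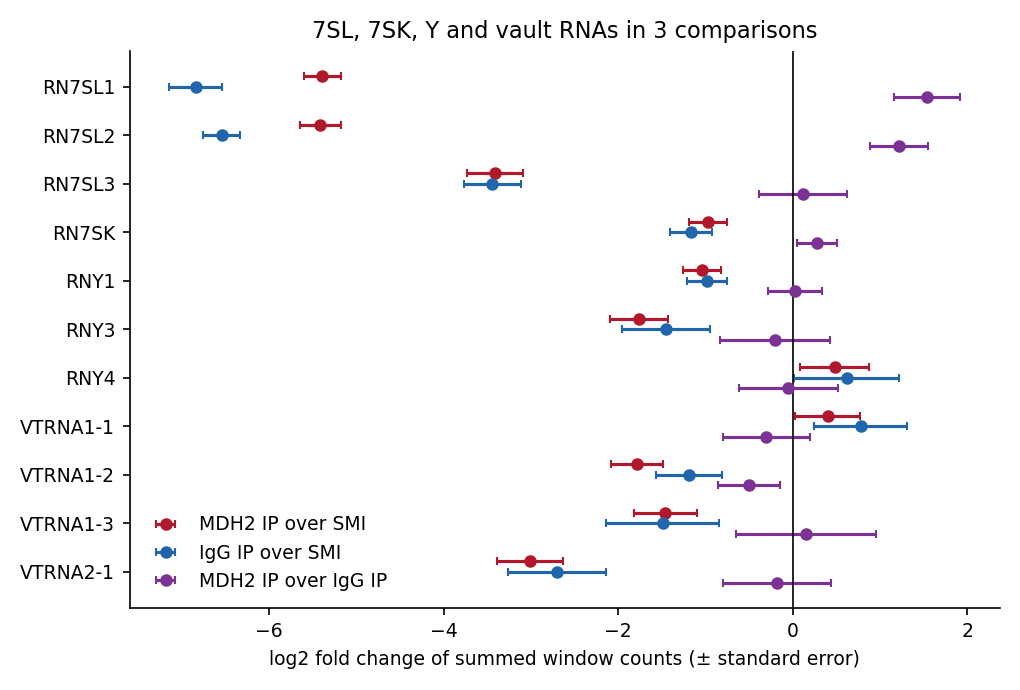
log2 fold change of summed window counts, with its standard error as bars, for 11 RNAs in 3 comparisons fitted with edgeR on 3 libraries per group. RN7SL1 lies at −5.39 and −6.84 in the comparisons with SMI and at 1.54 between the antibodies, while RNY4 and VTRNA1-1 lie above 0 over SMI without passing the test.

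The calls lay in part of RN7SK. Of 16 tested windows, the 8 from nt 141–190 to nt 281–330 were lower over SMI, with log2 fold changes between −1.70 and −1.41, and the windows before them were not called. In the window nt 241–290, the highest of all, the MDH2 IP counts were 3937, 3833 and 2056, the SMI counts 7950, 12641 and 7462 and the IgG IP counts 1231, 632 and 426 (−1.70, SE 0.21, adjusted p = 7.06e-06). In the 5′ window nt 41–90, printed above, the MDH2 IP counts were 1480, 1457 and 1204, the SMI counts 1262, 1672 and 1342 and the IgG IP counts 390, 207 and 126, a log2 fold change of −0.20 (SE 0.19) that did not pass. The next window, nt 61–110, had the same counts in each library, so its sites lie in nt 61–90. Windows in nt 1–130 held 21.1, 21.5 and 29.3% of RN7SK counts in MDH2 IP, 10.7, 9.06 and 11.2% in SMI, and 16.6, 17.8 and 16.5% in IgG IP. The 3 groups did not overlap in this share, with MDH2 IP highest. In the windows over nt 161–330 the order was turned, at 73.3 ± 4.41, 87.5 ± 1.16 and 80.6 ± 0.829% (SD, n = 3).

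The last window of RN7SK, nt 301–331, which ends in the T-rich 3′ end, went the other way. It had 35, 59 and 32 counts with the MDH2 antibody, 12, 10 and 5 in input and 9, 12 and 5 with IgG. It was enriched in MDH2 IP over SMI with a log2 fold change of 2.05 (SE 0.40, adjusted p = 0.00389), and in IgG IP over SMI with 2.63 (SE 0.50, adjusted p = 3.23e-05). This window held 0.24 ± 0.0627% of RN7SK counts with the MDH2 antibody, 0.0225 ± 0.0105% in input and 0.246 ± 0.112% with IgG, and the 2 antibodies overlapped. Over IgG IP its log2 fold change was −0.36, and 0 RN7SK windows were called in that comparison with TMM scaling, although those of nt 1–50 and nt 21–70 were enriched with library totals (1.41 and 1.33).

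**Figure D3:**
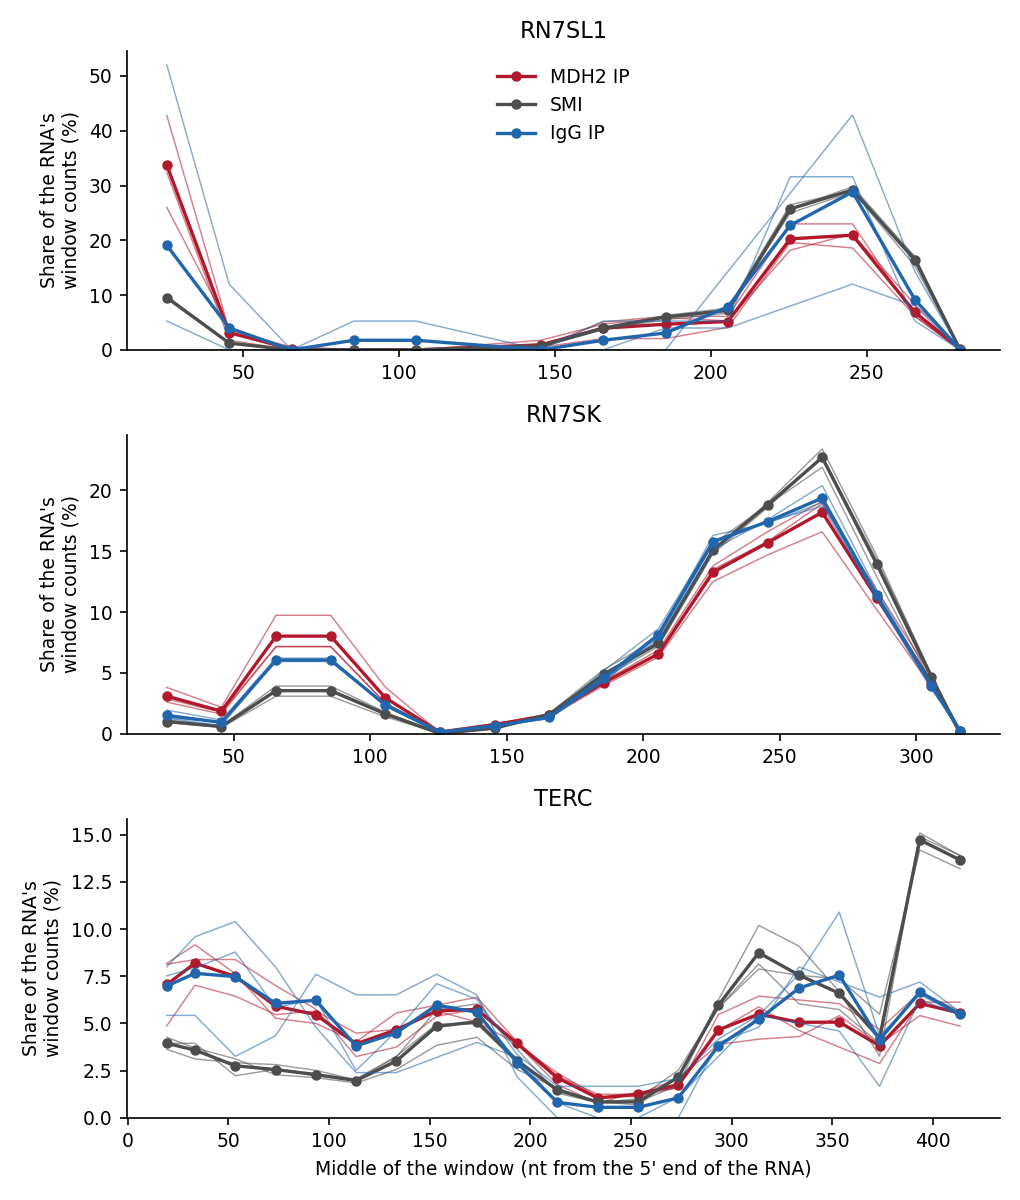
Share of an RNA's own window counts (%) in each window, plotted at the window's middle in nt from the 5′ end, for RN7SL1, RN7SK and TERC; thin lines are libraries and thick lines with points are means over 3 libraries. MDH2 IP exceeds SMI toward the 5′ end of all 3 RNAs, and IgG IP lies near MDH2 IP in TERC, where nt 1–158 hold 42.7 ± 3.52% with the MDH2 antibody, 20.1 ± 0.188% in input and 42.7 ± 3.3% with IgG.

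The enriched windows were nearly all in copies. Of the 23 windows enriched over SMI, 18 lay in 7 copies of RN7SK, 4 in 2 copies of Y RNA and 1 in RN7SK itself. They rest on few counts: MDH2 IP had between 10 and 61 per library outside RN7SK, 9 of the 23 had 0 counts in all SMI libraries, and 20 had at most 5 over the 3. In 21 of them the lowest MDH2 IP count exceeded the highest SMI count, which the filter nearly forces on the 20 that passed only through MDH2 IP. All 23 also had counts in IgG IP, between 5 and 45 over the 3 libraries. All were tested over IgG IP and 0 were enriched, with log2 fold changes between −1.22 and 0.57, in a comparison where 0.148% of all windows were enriched.

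RN7SKP71 (chr12:112267077-112267394, plus strand, antisense to HECTD4) had 5 enriched windows. At nt 161–210 it had 31, 37 and 39 counts with the MDH2 antibody, 0, 2 and 1 in input and 17, 5 and 8 with IgG, a ratio of MDH2 IP to SMI of 31.7 (exact 95% counting interval 10.6 to 156). At nt 141–190 it had 24, 24 and 26 counts with the MDH2 antibody and no SMI count, which puts MDH2 IP at least 21.9-fold higher if SMI is given 3 counts over the group. The 4 windows from nt 121–170 to nt 181–230 are identical to RN7SK in every base, and the fifth, nt 201–250, lost its call on leaving out any library of the comparison but SMI 2. Set against RN7SK's window of the same letters, RN7SKP71 at nt 161–210 had 3.47, 4.24 and 7.96% of its counts in MDH2 IP, 0, 0.0767 and 0.0555% in SMI, and 5, 3.52 and 8.89% in IgG IP. The ratio was higher with both antibodies than in SMI, where it was close to 0. This window was picked as enriched and passed the filter only through MDH2 IP. Its low ratio in SMI therefore restates that choice and is not a separate result. Reads with up to 10 alignments were kept, and how reads that fit both places were divided is not given in the sources used here.

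RN7SKP191 and RN7SKP9 had their enriched windows over the same stretch of the parent RNA. RN7SKP191 (chr9:105096756-105097061, plus strand) had 32, 25 and 18 counts with the MDH2 antibody, 0, 0 and 1 in input and 10, 4 and 4 with IgG at nt 161–210, a ratio of 66.7 with an interval of 11.6 to 2668. RN7SKP9 (chr13:99205708-99206006, plus strand), in intron 1 of UBAC2, had 26, 28 and 18 with the MDH2 antibody, 0, 2 and 2 in input and 10, 13 and 4 with IgG, with a log2 fold change over SMI of 3.89 (SE 0.54, adjusted p = 4.07e-05). The intron window of UBAC2 over it had the same counts, and the intron windows that do not overlap the enriched pair had at most 5 per library. Relative to RN7SK's window nt 161–210, RN7SKP191 was at 3.58, 2.87 and 3.67% with the MDH2 antibody, 0, 0 and 0.0555% in input and 2.94, 2.82 and 4.44% with IgG. Here too the low value in input restates how the window was picked.

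RN7SKP126, RN7SKP114, RN7SKP157 and RN7SKP160 had enriched windows over other or overlapping stretches. RN7SKP126 (chr1:192875686-192875985, minus strand), at RN7SK nt 173–222, had 12, 18 and 15 counts with the MDH2 antibody, 1, 0 and 0 in input and 4, 1 and 0 with IgG, a ratio to SMI of 40 with an interval of 6.82 to 1615. RN7SKP114 (chr9:34049966-34050244, plus strand), at RN7SK nt 85–131, had 30, 31 and 16 counts in MDH2 IP, 0 in every SMI library and 8, 6 and 2 in IgG IP, at least 22.8-fold higher than SMI. RN7SKP157 (chr5:62146665-62146946, plus strand), at RN7SK nt 47–101, had 19, 11 and 12 in MDH2 IP, 0 in every SMI library and 1, 1 and 3 in IgG IP, at least 12.4-fold higher than SMI. These 2 copies matched the 5′ part of RN7SK, and the enriched windows of the other copies matched stretches further toward its 3′ end. Apart from those of RN7SKP160, the enriched windows of all 7SK copies passed the filter only through MDH2 IP. Their high ratios to SMI are thus partly set by the filter, and they do not bear on RN7SK's profile. RN7SKP160 (chr1:173791548-173791887, plus strand), at RN7SK nt 272–321, had 28, 36 and 12 with the MDH2 antibody, 4, 12 and 3 in input and 9, 3 and 2 with IgG. Both of its enriched windows lost their call in 4 of the fits with a library left out (adjusted p = 0.0692 to 0.167). Summed over its windows the log2 fold change was 1.99 (SE 0.60, adjusted p = 0.0326), lost without MDH2 IP 1 or 2 or SMI 1 or 3.

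As whole genes, 14 of 24 tested 7SK genes rose over SMI and 1 (RN7SK) fell (background 16.4% higher and 17.9% lower). Of the 14, 10 passed the filter only through MDH2 IP. RN7SKP71 rose by a log2 fold change of 4.37 (SE 0.44, adjusted p = 0.000502), RN7SKP191 by 4.49 (SE 0.61, adjusted p = 0.00142) and RN7SKP9 by 2.29 (SE 0.56, adjusted p = 0.0138). In IgG IP over SMI the same genes rose too, by 4.31 (SE 0.53, adjusted p = 0.000323), 4.58 (SE 0.76, adjusted p = 0.00197) and 2.83 (SE 0.69, adjusted p = 0.0135), the last call lost without IgG IP 2 (0.0538). These comparisons share their SMI libraries. RN7SKP191 passed the filter only through MDH2 IP in the first and only through IgG IP in the second. Its rises were thus nearly fixed by the filter, and the second does not bear out the first. Over IgG IP, 0 of 23 tested 7SK genes were called, in a comparison where only 4.64% of all genes rose and 7.77% fell. Not every copy was higher over SMI: RN7SKP203, 86% identical to RN7SK, had 70, 87 and 105 summed counts with the MDH2 antibody and 108, 129 and 115 in input, a log2 fold change of −0.12 (SE 0.31, adjusted p = 0.78) whose sign changed on leaving out single libraries. Of its 4 tested windows, 2 were lower over SMI, nt 83–132 (−1.33) and nt 103–152 (−2.50), and 0 were enriched. Its window nt 43–92 had 1.26, not called.

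**Figure D4:**
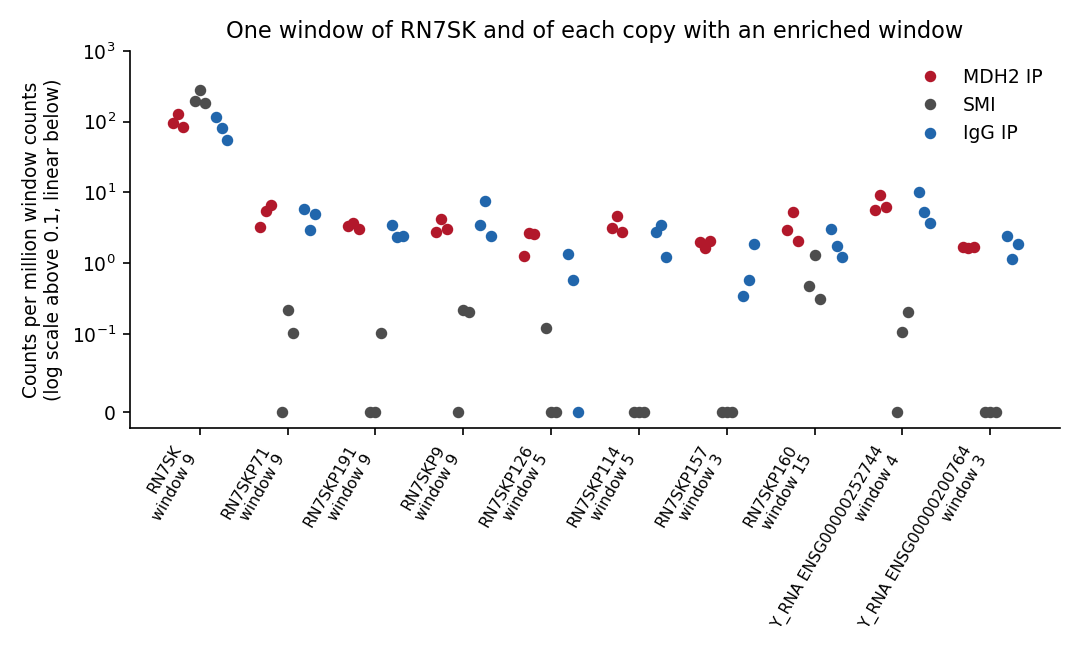
Window counts in CPM without TMM factors (log scale above 0.1, linear below) in RN7SK and in a window of each copy with an enriched window, named by window number in the deposited table; points are libraries, 3 for every group. In the RN7SKP71 window, MDH2 IP counts were 31, 37 and 39, SMI 0, 2 and 1 and IgG IP 17, 5 and 8, while in RN7SK the SMI libraries are highest.

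The Y RNAs went 2 ways, with the expressed genes RNY1 and RNY3 lower than SMI and some copies higher. RNY1 (chr7:148987136-148987248, minus strand, 113 nt) had 123, 145 and 84 summed counts with the MDH2 antibody, 253, 293 and 313 in input and 47, 26 and 19 with IgG, without overlap between MDH2 IP and SMI. Its log2 fold change was −1.04 (SE 0.22, adjusted p = 0.00776) in MDH2 IP over SMI and −0.98 (SE 0.23, adjusted p = 0.0121) in IgG IP over SMI, the latter lost without SMI 1 (0.0532). All 5 of its windows were lower, from −2.23 at nt 64–113 to −1.11 at nt 4–53, and the last of these calls was lost without MDH2 IP 1, SMI 1 or SMI 2 and with library totals. RNY3 (chr7:148983755-148983856, plus strand, 102 nt) had 23, 24 and 12 counts with the MDH2 antibody, 71, 93 and 70 in input and 14, 3 and 2 with IgG. It fell by 1.76 on the log2 scale (SE 0.33, adjusted p = 0.00452) over SMI, and in IgG IP over SMI its value of −1.45 (SE 0.50, adjusted p = 0.0562) did not pass, though without IgG IP 1 it was −2.34 and passed (adjusted p = 0.0188). It also passed with library totals (0.0381), DESeq2 (0.0426), the fit of all 9 libraries (0.0425), the replicate block (0.0299) and non-overlapping windows (0.0408).

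RNY4 (chr7:148963315-148963410, plus strand, 96 nt) was not called over SMI, and whether it differs from RNY1 and RNY3 was not tested. It had 40, 54 and 38 counts with the MDH2 antibody, 29, 57 and 28 in input and 32, 5 and 4 with IgG, with overlap of all groups and a log2 fold change over SMI of 0.48 (SE 0.40, adjusted p = 0.373). The 3 genes lie within chr7:148963315-148987248 and share between 63.7% (RNY1 with RNY4) and 72.6% (RNY1 with RNY3) of aligned positions. Of 21 Y genes tested over SMI, 6 rose and 6 fell (background 16.4% higher and 17.9% lower). All 6 that rose passed the filter only through MDH2 IP, and 2 of the 6 that fell passed only through SMI.

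The Y copy ENSG00000252744 (chr1:148330271-148330394, plus strand, inside the lncRNA ENSG00000224481) was enriched near its 3′ end. At nt 61–110, 96% identical to RNY3 nt 39–88, it had 53, 61 and 36 counts with the MDH2 antibody, 0, 1 and 2 in input and 30, 9 and 6 with IgG, a ratio of MDH2 IP to SMI of 44.4 with an interval of 14.9 to 218. Summed over its windows it rose by 5.88 (SE 0.57, adjusted p = 0.000425) on the log2 scale in MDH2 IP and by 5.95 (SE 0.73, adjusted p = 0.000321) in IgG IP, each over SMI. In each fit this copy passed the filter only through the antibody's libraries, so a rise was nearly fixed in advance. The fits also share their SMI libraries, so neither bears out the other. The copy ENSG00000200764 (chr2:207687960-207688059, plus strand) had 16, 11 and 10 counts in MDH2 IP at nt 41–90, 0 in every SMI library and 7, 2 and 3 in IgG IP, at least 11-fold higher than SMI. The enriched windows of both copies passed the filter only through MDH2 IP. Both copies match the 3′ part of RNY3, while RNY3's own counts passed the filter only at nt 1–50, with 17, 22 and 11 in MDH2 IP against 62, 85 and 65 in SMI (−2.24, SE 0.30, adjusted p = 4.74e-06). Other copies fell, such as ENSG00000199866 (chr2:172558151-172558252, minus strand) with 12, 9 and 5 summed counts with the MDH2 antibody and 31, 34 and 35 in input, a log2 fold change of −1.73 (SE 0.41, adjusted p = 0.0119).

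Of the vault RNAs, VTRNA2-1, VTRNA1-2 and VTRNA1-3 fell over SMI and VTRNA1-1 did not. VTRNA2-1 (chr5:136080470-136080597, minus strand, 128 nt), which was annotated as a microRNA precursor before it was named a vault RNA and is also known as nc886, had 137, 222 and 90 summed counts with the MDH2 antibody, 1630, 1683 and 946 in input and 124, 28 and 5 with IgG. Its log2 fold change was −3.01 (SE 0.38, adjusted p = 0.00107) in MDH2 IP over SMI and −2.70 (SE 0.56, adjusted p = 0.00645) in IgG IP over SMI. All 4 of its tested windows were lower, most of all nt 1–48 with 18, 27 and 15 counts in MDH2 IP against 287, 283 and 164 in SMI (−3.79, SE 0.32). A second entry of the table, called Vault, covers the same place and repeats these sites.

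VTRNA1-2 (chr5:140718925-140719013, plus strand, 89 nt) had 300, 348 and 309 counts with the MDH2 antibody, 1369, 1731 and 856 in input and 279, 62 and 64 with IgG. It fell by 1.78 on the log2 scale (SE 0.30, adjusted p = 0.00296) in MDH2 IP over SMI and by 1.19 (SE 0.38, adjusted p = 0.0403) in IgG IP over SMI, the latter lost without IgG IP 2 or 3 or SMI 1 or 2. The repeated Vault entry aside, only VTRNA1-2 and VTRNA2-1 had windows tested in MDH2 IP over IgG IP. The 4 windows of VTRNA2-1 had log2 fold changes from −1.01 to −0.80 there, and 0 were called. VTRNA1-2 had windows called lower in MDH2 IP than in IgG IP. They were all 3 of its windows, with log2 fold changes of −1.18 at nt 1–50, −1.21 at nt 21–70 and −1.13 at nt 41–89 (adjusted p = 0.0237, 0.0104 and 0.0476), of which the first was lost without MDH2 IP 1 or 3 or IgG IP 1, the second without MDH2 IP 1 or IgG IP 1 and the third without any MDH2 IP library or IgG IP 1 (adjusted p from 0.0644 up). With library totals all 3 calls were lost, at −0.37, −0.40 and −0.32, and so they were with DESeq2 (adjusted p = 0.27, 0.17 and 0.397). The call at nt 41–89 was also lost with DESeq2's size factors (0.06) and with the replicate block (0.0564). As a whole gene it had −0.50 (SE 0.36, adjusted p = 0.383) in that comparison.

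VTRNA1-3 (chr5:140726158-140726246, plus strand, 89 nt) had 19, 26 and 29 counts with the MDH2 antibody, 88, 79 and 82 in input and 16, 0 and 4 with IgG, a log2 fold change over SMI of −1.46 (SE 0.36, adjusted p = 0.0139) that was lost without SMI 1 (adjusted p = 0.0627) and in a fit of all 9 libraries (0.079). VTRNA1-1 (chr5:140711275-140711373, plus strand, 99 nt) had 44, 23 and 31 counts with the MDH2 antibody, 26, 38 and 22 in input and 21, 8 and 4 with IgG. MDH2 IP and SMI overlapped, and the log2 fold change was 0.40 (SE 0.37, adjusted p = 0.428). The 3 VTRNA1 genes lie side by side and share between 81.8% and 87.8% of aligned positions, as the printed sequences show, and yet differed in their share of SMI. Whether their fold changes differ from each other was not tested. Over IgG IP, 9 RNAs (RN7SL3, RN7SK, the 3 Y RNAs and the 4 vault RNAs) had log2 fold changes between −0.50 and 0.28, the lowest adjusted p being 0.383.

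The remaining genes of the set include the telomerase RNA TERC, which templates telomere repeats, and conserved pieces of long non-coding RNAs. TERC (chr3:169764610-169765047, minus strand, 438 nt) had 799, 720 and 512 summed counts with the MDH2 antibody, 583, 993 and 703 in input and 239, 125 and 92 with IgG, a log2 fold change over SMI of 0.07 (SE 0.19, adjusted p = 0.796). Its total was level, but its profile was not: nt 1–158 held 44.7, 44.9 and 38.7% of its counts in MDH2 IP, 20.2, 20.2 and 19.9% in SMI, and 43.5, 45.6 and 39.1% in IgG IP. Of 19 windows tested in MDH2 IP over SMI, 3 toward the 3′ end were lower (9.92% of all windows). Of 18 tested in IgG IP over SMI, 4 in nt 9–118 were enriched (6.17% of all). Between the antibodies 17 were tested and 0 called, where 0.148% of all windows were enriched and 4.77% lower.

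The only member gene lower in MDH2 IP than in IgG IP was ENSG00000277599 (chr11:65423960-65424118, plus strand), a piece of NEAT1, the scaffold of paraspeckles. It had 192, 236 and 80 counts with the MDH2 antibody, 132, 186 and 78 in input and 156, 117 and 76 with IgG. In CPM this was 21.6 ± 10.2, 14.4 ± 6.01 and 60.3 ± 10.4 (SD, n = 3 each), so IgG IP was highest. The log2 fold change was −1.42 (SE 0.33, adjusted p = 0.0236) over IgG IP, lost without IgG IP 1, IgG IP 2 or MDH2 IP 1, and 2.08 (SE 0.33, adjusted p = 0.00145) in IgG IP over SMI. NEAT1 pieces made up 14 of the 17 member windows lower over IgG IP. The 17 became 1 with library totals, 5 without MDH2 IP 1, 9 without MDH2 IP 3 or IgG IP 1 and 10 without IgG IP 2.

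The comparison of IgG IP with SMI shows how far the control antibody departs from the input. Of its 117 tested member windows, 21 were enriched and 33 lower (background 6.17% and 6.34% of 26666 windows). With library totals the split was 9 enriched and 47 lower. The lower ones were 25 7SL windows (24 passed only through SMI), 7 vault windows (3 of them of the repeated Vault entry) and the RN7SK window nt 261–310, whose call was lost without IgG IP 3 or SMI 2. The enriched ones were 15 windows of NEAT1 pieces, 4 of TERC, the last of RN7SK and 1 of RN7SKP203. By gene, 8 of 48 rose and 9 fell (background 16.4% and 11.4% of 15708 genes).

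The mRNAs of proteins of the particles these RNAs belong to, with the receptor of the signal recognition particle, were counted as a list in the gene fit. Of 23 mRNAs, 9 rose and 6 fell in MDH2 IP over SMI, with a median log2 fold change of 0.22 against −0.01 over all genes, beside a background of 16.4% and 17.9%. Of the 8 signal recognition particle mRNAs, that of the receptor subunit SRPRA rose by 0.71 (SE 0.13, adjusted p = 0.00476), while SRP9 (−0.94, adjusted p = 0.00336), SRP19 (−0.55, adjusted p = 0.048) and SRP72 (−0.49, adjusted p = 0.043) fell. Of the 7 mRNAs for the 7SK particle, LARP7, MEPCE, HEXIM1 and CDK9 rose by between 0.73 and 1.11, and the cyclins CCNT1 (−0.51) and CCNT2 (−0.80) fell. Among Y RNA partners, RO60 fell (−0.90, SE 0.15, adjusted p = 0.00271) and SSB, NCL and PTBP1 rose by between 0.62 and 1.03. TEP1, a vault protein, rose by 0.83 (SE 0.20, adjusted p = 0.0133), while MVP had 0.67 (SE 0.70, adjusted p = 0.488). In IgG IP over SMI, 3 of the 23 rose and 6 fell, beside a background of 16.4% and 11.4%. Those that rose were MEPCE (1.29), HEXIM1 (1.48) and PTBP1 (1.08), and the 6 were the same that fell in MDH2 IP. MEPCE, HEXIM1 and PTBP1 had −0.25, −0.66 and −0.20 in MDH2 IP over IgG IP, none called. Over IgG IP, 3 of the 23 rose, SRPRA by 1.03 (SE 0.28, adjusted p = 0.0377), SSB by 1.17 (SE 0.25, adjusted p = 0.0166) and NCL by 0.99 (SE 0.15, adjusted p = 0.00472), and without MDH2 IP 1 only 1 of them passed. Without SMI 1, 3 in place of 6 fell over SMI.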

How the data were processed

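The deposited table holds counts of cross-link sites per window, not normalized. According to the methods and notes, the authors trimmed reads (cutadapt 2.5, reads under 18 nt dropped), aligned them with STAR 2.7.1a with at most 10 alignments kept, removed PCR duplicates by molecular identifiers (UMI-tools 1.0.0) and counted sites in 50-nt windows, 20 nt apart, along GENCODE 23 gene models on GRCh38 with tRNA genes added. All columns were used (0 unused). Each site is counted in up to 3 windows.

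Gene types and coordinates are those of GENCODE 44, which matched 96.6% of Ensembl identifiers, and the rest held 0.918% of counts. Window positions follow from gene start, window number and step; windows are numbered along the genome, which RN7SL1 and RN7SL2 bore out (Pearson r across 14 windows of the SMI profiles −0.529 in the same order and 0.896 reversed). RNY5 was not analysed here. Sequences were read from GRCh38, and some are not reported here.

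Where 3 or more of 6 libraries reached 10 counts, a window or gene was tested with edgeR 4.0.16 (quasi-likelihood, TMM) in R 4.3.3, with only the groups compared in the fit. Window p-values were one-sided and multiplied by how many tested windows overlap, and all were adjusted by Benjamini-Hochberg over all tested windows or genes. The standard error is the log2 fold change over the root of F. DEWSeq, named in the methods, was replaced by edgeR, and the study's removal of regions without input counts was not repeated. On simulated data of MDH2 IP over SMI, 95% of 200 windows (of 43722) and 85% of 200 genes (of 16597) changed 4-fold were recovered, with 9 and 3 false calls. Overlapping windows were drawn there independently and only these rows changed, all upward, so the false calls need not carry over to the real data. Alternatives were other scalings, filters, DESeq2 1.42.0, a fit of all libraries, non-overlapping windows only (each window after skipping its overlapping neighbours), a replicate block and each library left out. Vault RNAs without the repeated Vault entry were an alternative chosen after seeing the data.

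Named are the main 7SL, 7SK, Y and vault RNAs, in each family the 5 further tested members with the highest mean CPM, members with an enriched window (at most 15), their windows of highest count and fold change, and a list of partner mRNAs. The members and lists were chosen with earlier results of these data known.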

Additional observations from a re-analysis of the deposited data

How the results depend on the processing

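Of the counts of calls among the members and partners, 209 of 246 stayed within 1.5 times their value across the alternatives, as did 73 of 75 shares within their spread; 663 of 730 values of single genes and 726 of 780 of single windows kept direction and side of the threshold. In MDH2 IP over SMI, the 23 enriched member windows became 9 with a filter of 20 counts and 42 with 5 (20 to 23 with a library left out, and 60 to 65 for the 65 lower). The 21 higher genes became 9 with non-overlapping windows, 7 with a filter of 30 counts and 32 with no filter (17 to 21 with a library left out), and the 14 lower ones 23 with no filter (11 to 14). The 6 lower partners became 3 to 5 with a library left out. In MDH2 IP over IgG IP, the 0 enriched windows became 5 with library totals, in RN7SK, RN7SL1 and RN7SL2 (0 to 0 with a library left out). The 17 lower windows became 8 with a filter of 20 counts, 1 with library totals and 5 to 18 with a library left out (5 without MDH2 IP 1, 9 without MDH2 IP 3 or IgG IP 1, 10 without IgG IP 2). The 2 higher genes became 0 to 1 with a library left out, and the 1 lower 2 with DESeq2, non-overlapping windows or no filter, and 0 to 2. The 3 higher partners became 8 with library totals and 1 to 3 with a library left out. In IgG IP over SMI, the 21 enriched windows became 9 with a filter of 20 counts or library totals (14 to 22 with a library left out), and the 8 higher genes 4 with non-overlapping windows, 3 with a filter of 30 counts and 23 with no filter (6 to 8). With non-overlapping windows, the Y RNA share was 0.0152% in MDH2 IP and 0.0151% in SMI. Values near 0 changed sign: with library totals VTRNA1-1 window 1 was 0.32 and RNY4 window 1 0.27 (−0.40 to 0.08 and −0.38 to 0.11 with a library left out), with non-overlapping windows TERC was −0.03 (−0.04 to 0.29), and with a library left out RN7SKP203 was −0.44 to 0.18, the Y copy ENSG00000199901 −1.32 to 0.16 and ENSG00000278050 −0.38 to 0.64. The causes were not tested, beyond fewer windows or libraries entering. Library totals moved the median of all windows to 0.53 and 0.93 in MDH2 IP against SMI and IgG IP, and to −0.73 for IgG IP against SMI.

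Libraries of the same number did not deviate together in every pair (correlations 0.0415, 0.379 and 0.378 between MDH2 IP and SMI, and −0.0187, 0.128 and 0.195 between MDH2 IP and IgG IP, and 0.000313, 0.14 and 0.163 between IgG IP and SMI), so the number was not taken as a pairing. With the replicate block, 25 windows were enriched and 64 lower, 24 genes higher and 17 lower, and 12 partners higher and 8 lower in MDH2 IP over SMI. In MDH2 IP over IgG IP, 0 windows were enriched and 18 lower, 2 genes higher and 3 lower, and 10 partners higher and 1 lower. In IgG IP over SMI, 21 windows were enriched and 33 lower, 8 genes higher and 11 lower, and 3 partners higher and 7 lower. The IgG IP libraries, the shallowest, limit what their comparisons can show.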
